A study of Mus musculus with 8 samples.

Results

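The small leucine-rich proteoglycans are secreted proteins of the extracellular matrix, and 10 of their genes were examined in the embryonic mouse palate: Bgn, Dcn, Aspn, Fmod, Lum, Prelp, Kera, Omd, Ogn and Epyc. They were taken by symbol from a table of 55536 genes, each symbol matched 1 row, and all 10 were among the 16647 genes kept for testing because 4 or more of the 8 libraries reached a normalised count of 10. Posterior palatal shelves were dissected from E14.5 embryos before the shelves had risen above the tongue, with epithelium and mesenchyme together and the right and left shelf taken, and their RNA was sequenced. The 4 control libraries came from Yapfl/fl;Tazfl/fl embryos, in which both genes carry floxed alleles and no Cre is named, and the 4 mutant libraries from Yapfl/fl;Tazfl/fl;Col2Cre embryos, which carry the same floxed alleles and a Cre named for Col2, the cartilage collagen gene Col2a1. A Cre of this kind acts where that regulatory sequence is active, so the dissected shelf can hold cells that kept both genes. No label ties a library to an embryo of its own, so p-values here refer only to the spread among these libraries, which may be technical.

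Small leucine-rich proteoglycans share a curved core of leucine-rich repeats that lies on collagen fibrils and helps to set how fibrils grow in width and join. Many carry chains of chondroitin, dermatan or keratan sulfate, and several bind growth factors of the TGF-beta family. They are abundant in connective tissue, cartilage and forming bone, all of which arise from or beside the palatal mesenchyme. The family has a decorin class (Dcn, Bgn, Aspn), a fibromodulin and lumican class (Fmod, Lum, Prelp, Kera, Omd) and an osteoglycin class (Ogn, Epyc).

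The libraries held 29025089 to 32437977 reads each. Yap1 had 9610 ± 429 normalised counts in the controls against 8463 ± 277 in the mutants (SD, n = 4 each), a log2 difference of -0.18, and Wwtr1, the gene for TAZ, had 4879 ± 352 and 4007 ± 397, a log2 difference of -0.29. The limma test over the whole table called neither (adjusted p = 0.751 for each), and exact two-sided permutation gave p = 0.0286 for Yap1, the smallest that 4 against 4 libraries allow, and p = 0.0571 for Wwtr1. Markers of both labelled tissues were present: the mesenchymal gene Pdgfra had 17234 ± 1135 normalised counts in controls and the epithelial gene Krt14 had 5256 ± 721. In these bulk samples, fewer cells of a type and less RNA per cell cannot be told apart. Mutant replicate 2 stood apart from the other libraries for these proteoglycans, so the values that rest on it are given with and without it.

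Of the 10 genes, 7 had a lower mean in mutants and 3 a higher one, where 50% of all genes tested had a lower mean log2 level in mutants. None passed the limma test with Benjamini-Hochberg adjustment over all 16647 genes, which called 0.024% of genes lower and 0% higher. Without adjustment, 5 of the 10 had p below 0.05 and all 5 were lower in mutants (Prelp, Bgn, Ogn, Fmod and Aspn), where 3.79% of all genes were lower at that level, 2.78% were higher and 6.57% were either. In 3 of the 10, Prelp, Bgn and Ogn, all mutant libraries were below all control libraries, which held for 1.91% of all genes. The median log2 difference (mutant minus control) was -0.40 over the 10 and -0.00015 over all genes tested, and without mutant replicate 2 the median over the 10 was -0.24. These counts describe genes picked with earlier results of the same libraries known.

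**Figure D1:**
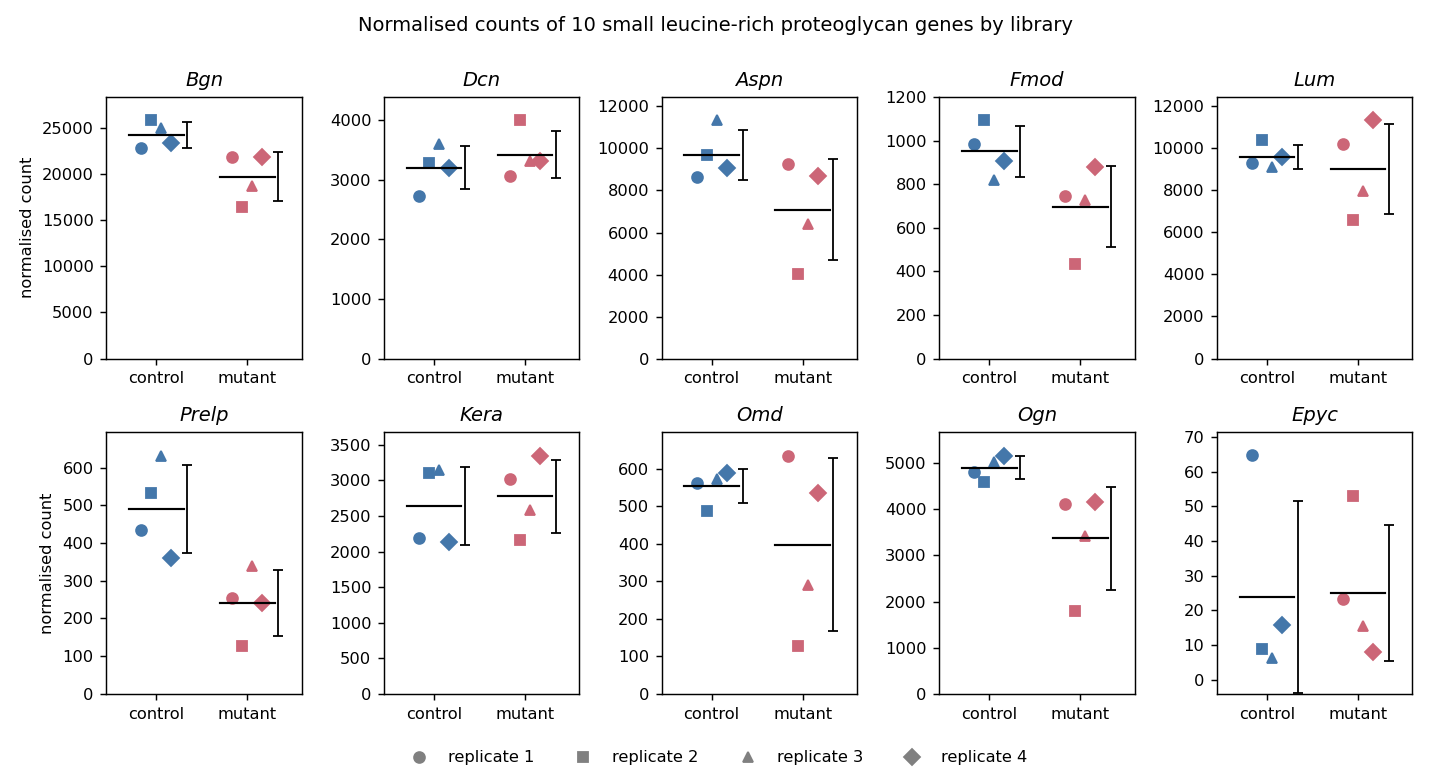
Normalised count (vertical axis, linear, a separate scale for each gene) of the 10 genes in the 4 control and 4 mutant libraries. Points are libraries with 1 marker shape per replicate number, horizontal lines are group means and bars are the SD (n = 4). Mutant replicate 2 (square) is the lowest library for 7 of the 10 genes and the highest for Dcn, and in the Epyc panel the SD bar of the controls reaches below 0.

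Apart from Bgn, the 10 genes lie in clusters, and those of chromosome 13 and of chromosome 1 gave the lower values. Upstream sequence is shown for 4 genes, Aspn, Omd and Ogn, which stand beside each other on chromosome 13, and Prelp, which had the largest difference of the 10. Each is the 250 bases before the RefSeq transcription start in GRCm38.p6, read 5′ to 3′ on the gene's own strand, and 8 of the 10 genes (not Dcn and Lum) matched an entry. Capitals mark matches on either strand to the letters of 4 motifs: TEAD (GGAATG, or CATTCC on the other strand), the DNA partner family of YAP and TAZ; RUNX (TGTGGT or ACCACA); the TATA box (TATAAA or TTTATA); and AP-1 (TGANTCA).
The Aspn window is chr13:49544193-49544442 on the plus strand.
Aspn: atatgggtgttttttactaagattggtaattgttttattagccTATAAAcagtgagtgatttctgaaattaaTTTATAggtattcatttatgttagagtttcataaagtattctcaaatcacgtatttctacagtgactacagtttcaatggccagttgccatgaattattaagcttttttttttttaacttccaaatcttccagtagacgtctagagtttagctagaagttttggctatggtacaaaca
The Omd window is chr13:49582212-49582461 on the plus strand.
Omd: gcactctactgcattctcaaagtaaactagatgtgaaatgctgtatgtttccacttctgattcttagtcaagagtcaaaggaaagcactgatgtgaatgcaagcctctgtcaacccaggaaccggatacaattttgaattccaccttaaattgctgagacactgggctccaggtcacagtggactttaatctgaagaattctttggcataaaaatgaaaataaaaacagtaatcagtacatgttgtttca
The Ogn window is chr13:49607765-49608014 on the plus strand.
Ogn: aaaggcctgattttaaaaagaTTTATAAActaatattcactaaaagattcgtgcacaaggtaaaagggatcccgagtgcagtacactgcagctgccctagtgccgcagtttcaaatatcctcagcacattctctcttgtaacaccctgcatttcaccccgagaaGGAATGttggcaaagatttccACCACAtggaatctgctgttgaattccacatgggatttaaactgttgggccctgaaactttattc
The Prelp window is chr1:133921402-133921651 on the minus strand.
Prelp: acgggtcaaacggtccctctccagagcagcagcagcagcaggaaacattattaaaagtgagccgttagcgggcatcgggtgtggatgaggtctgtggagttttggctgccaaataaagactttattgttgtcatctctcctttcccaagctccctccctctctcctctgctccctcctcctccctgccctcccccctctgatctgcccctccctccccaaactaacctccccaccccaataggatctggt

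The Ogn window held the TEAD letters 86 bases before the start, the RUNX letters (reverse strand) 65 bases before it, and a pair of TATA matches that overlap each other, beginning 229 and 227 bases before it. The Aspn window held TATA letters 207 and 178 bases before the start, and the windows of Omd and Prelp held none of the 4 motifs. Among the other windows, those of Bgn, Fmod and Kera also held none, and of a pair of Epyc start sites 1 held the TEAD letters, 188 bases before the start. Of 32851 RefSeq windows of the same length, 12.6% held the TEAD letters, 14.0% the RUNX letters, 12.4% the TATA letters and 6.75% the AP-1 letters. Base composition ran from 30.0% G and C in Aspn through 38.4% in Omd, 42.0% in Ogn and 55.6% in Prelp to 64.4% in Bgn. A match of letters is a description of the sequence and shows no binding.

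In the decorin class, biglycan was lower in every mutant library, decorin overlapped between the groups and had a slightly higher mean, and asporin was lower mainly in 2 mutant libraries. Bgn (ENSMUSG00000031375, chromosome X, 73483602 to 73495933, plus strand, GRCm38), which encodes biglycan, a matrix proteoglycan needed for normal bone mass, stands alone among the 10 in lying outside a cluster. Its normalised counts in control replicates 1 to 4 were 22794.5, 25798.5, 24974 and 23303, and in mutant replicates 1 to 4 they were 21820, 16367, 18737 and 21863. The groups did not overlap, although mutant replicates 1 and 4 lay just under the lowest control. The means were 24217 ± 1406 and 19697 ± 2659 (SD, n = 4 each), so mutants had 81.3% of the control level. The log2 difference was -0.31 (SE 0.0895, 95% interval -0.50 to -0.11, limma adjusted p = 0.754), and -0.22 without mutant replicate 2.

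Dcn (ENSMUSG00000019929, chromosome 10, 97479609 to 97518143, plus strand) encodes decorin, which binds collagen fibrils and TGF-beta and is the closest relative of biglycan. Its counts were 2716, 3285, 3588 and 3196.5 in control replicates 1 to 4 and 3060, 3990, 3313 and 3310.5 in mutant replicates 1 to 4. Mutant replicate 2, the lowest library for most of the family, was the highest for Dcn, and the other mutants lay inside the control range. Dcn had a log2 difference of 0.10 (SE 0.0964, 95% interval -0.11 to 0.31, limma adjusted p = 0.881). Several single libraries moved it: it was 0.020 without mutant replicate 2 and 0.021 without control replicate 1, and 0.15 without mutant replicate 1 and 0.155 without control replicate 3.

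Aspn (ENSMUSG00000021388, chromosome 13, 49544443 to 49567565, plus strand) encodes asporin, a decorin relative with a run of aspartate residues that binds calcium and collagen. It had 8628, 9698, 11336 and 9060 counts in control replicates 1 to 4 and 9263, 4002, 6415 and 8676 in mutant replicates 1 to 4. Mutant replicates 2 and 3 were below all controls, and mutant replicates 1 and 4 lay inside the control range. Asporin's log2 difference was -0.51 (SE 0.211, 95% interval -0.98 to -0.054, limma adjusted p = 0.754) and -0.26 without mutant replicate 2.

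In the fibromodulin and lumican class, Prelp, Fmod, Omd and Lum had lower means in mutants and Kera a higher one. The group means of Omd, of Lum and of Kera differed by less than the SD of the mutants. Prelp (ENSMUSG00000041577, chromosome 1, 133910304 to 133921414, minus strand) encodes a basic leucine-rich repeat protein that anchors basement membranes to collagen and binds heparan sulfate. Its counts were 435.5, 533, 631 and 360 in control replicates 1 to 4 and 254, 126, 339 and 241 in mutant replicates 1 to 4. No mutant library reached a control library, the highest mutant being replicate 3 and the lowest control replicate 4. The means of 490 ± 118 and 240 ± 87.5 (SD, n = 4 each) put the controls 2.04-fold above the mutants. Its log2 difference of -1.08 (SE 0.274, 95% interval -1.68 to -0.48) was the largest in size of the 10, ranked 36 of 16647 genes by limma p, and had an adjusted p of 0.751. Without mutant replicate 2 the difference was -0.80. Prelp was the only one of the 10 to pass a test over all genes under any of the settings tried: DESeq2 on the recovered reads gave an adjusted p of 0.0478 with a log2 difference of -1.03, and its adjusted p ranged up to 0.976 over the alternatives.

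Fmod (ENSMUSG00000041559, chromosome 1, 134037254 to 134048277, plus strand) encodes fibromodulin, a keratan sulfate proteoglycan of tendon and cartilage that takes part in collagen cross-linking. Its counts were 986, 1094, 820 and 907 in control replicates 1 to 4 and 746, 435, 730 and 882 in mutant replicates 1 to 4. Mutant replicates 1 to 3 were below all controls, and mutant replicate 4 was above the lowest control only. Fibromodulin's log2 difference was -0.48 (SE 0.186, 95% interval -0.89 to -0.079, limma adjusted p = 0.754) and -0.27 without mutant replicate 2.

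Omd (ENSMUSG00000048368, chromosome 13, 49582462 to 49592822, plus strand) encodes osteomodulin, also called osteoadherin, a keratan sulfate proteoglycan made by osteoblasts. Its counts were 563, 489, 573.5 and 590 in control replicates 1 to 4, and 635, 128, 290 and 536 in mutant replicates 1 to 4. The controls were close together, whereas the mutants held both the highest library of the 8 (replicate 1) and the lowest (replicate 2). The log2 difference of -0.72 therefore had a wide interval (SE 0.388, 95% interval -1.57 to 0.13, limma adjusted p = 0.773), and it was -0.26 without mutant replicate 2.

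Lum (ENSMUSG00000036446, chromosome 10, 97565128 to 97572703, plus strand) encodes lumican, a keratan sulfate proteoglycan first known from the cornea and also widespread in mesenchyme. Its counts were 9285, 10367, 9088 and 9553 in control replicates 1 to 4 and 10181, 6553, 7962 and 11302 in mutant replicates 1 to 4. The mutants lay on both sides of the controls, with replicates 2 and 3 below all of them and replicate 4 above. Lumican's log2 difference was -0.12 (SE 0.137, 95% interval -0.42 to 0.18, limma adjusted p = 0.892). Each mutant library moved it by over 1.5 times: it was 0.023 without replicate 2, -0.071 without replicate 3, -0.19 without replicate 1 and -0.24 without replicate 4.

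Kera (ENSMUSG00000019932, chromosome 10, 97606879 to 97613692, plus strand) encodes keratocan, a keratan sulfate proteoglycan best known from the corneal stroma. Its counts were 2195, 3096, 3139 and 2134 in control replicates 1 to 4 and 3015.5, 2165.5, 2579 and 3344 in mutant replicates 1 to 4. The controls fell into a lower and a higher pair, and the mutants spanned nearly the same range. Keratocan had a log2 difference of 0.077 (SE 0.155, 95% interval -0.26 to 0.41, limma adjusted p = 0.951). Leaving out single libraries gave values from -0.019 (without mutant replicate 4) to 0.19 (without mutant replicate 2), and its sign turned under 4 of the 21 alternatives, so these libraries give no direction for Kera.

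In the osteoglycin class, Ogn was lower in every mutant library and Epyc was near the filter on low values. Ogn (ENSMUSG00000021390, chromosome 13, 49608046 to 49624501, plus strand) encodes osteoglycin, also called mimecan, a small matrix protein first isolated from bone. Its counts were 4803, 4592, 5031 and 5155 in control replicates 1 to 4 and 4111, 1786, 3413.5 and 4158 in mutant replicates 1 to 4. The controls differed little, with a coefficient of variation of 5.09%, and all mutants were below them, replicate 2 by far the most. Osteoglycin's log2 difference was -0.61 (SE 0.212, 95% interval -1.08 to -0.15, limma adjusted p = 0.754). It was -0.33 without mutant replicate 2 (limma adjusted p = 0.976). The unadjusted limma p for Ogn was 0.0137 with all libraries and 0.00119 without mutant replicate 2.

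Epyc (ENSMUSG00000019936, chromosome 10, 97644068 to 97682454, plus strand) encodes epiphycan, a dermatan sulfate proteoglycan of growth-plate cartilage. Its counts were 65, 8.80, 6.20 and 15.7 in control replicates 1 to 4 and 23.3, 53.0, 15.4 and 8.10 in mutant replicates 1 to 4. Control replicate 1 was the highest of the controls and mutant replicate 2 the highest of the mutants, and the groups overlapped. The log2 difference was 0.33 (SE 0.769, 95% interval -1.35 to 2.01, limma adjusted p = 0.961). Leaving out single libraries gave values from -0.12 (without mutant replicate 2) to 0.99 (without control replicate 1), so no direction is given for Epyc. At these counts the value depends on the scale, which here is log2 of the normalised count plus 1. Adding 0.5 gave 0.35 and adding 8 gave 0.20. With edgeR and DESeq2 on the recovered reads the difference was 0.068 and 0.063. The group means were 23.9 ± 27.7 normalised counts in the controls and 24.95 ± 19.7 in the mutants (SD, n = 4 each).

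**Figure D2:**
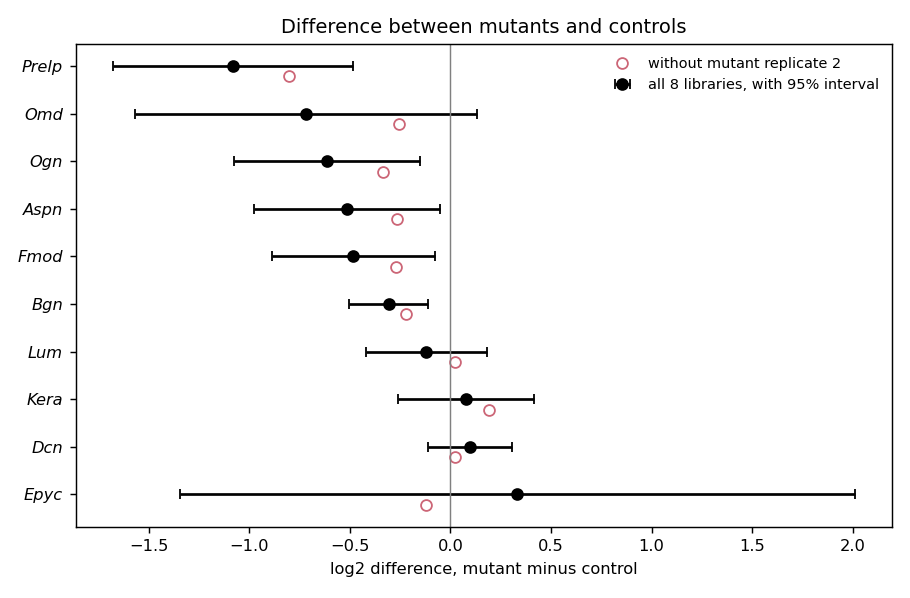
Log2 difference between mutants and controls (horizontal axis, mutant minus control, linear in log2) for the 10 genes, ordered from the most negative. Filled points with bars are the limma estimate from all 8 libraries with its 95% interval, and open points leave out mutant replicate 2: the interval of Prelp runs from -1.68 to -0.48 and its open point stands at -0.80, while Lum and Epyc have open points on the other side of 0.

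Levels of different genes can be compared only per length, and for that the normalised counts were divided by the length of 1 principal transcript per gene. On this scale Bgn was the most abundant of the family in every library, with 10011 ± 581 normalised counts per kb in the controls against 8142 ± 1099 in the mutants (SD, n = 4 each). Aspn (4157 ± 510 in controls) and Lum (3911 ± 230) came next and did not differ beyond their spread, with Lum above Aspn in control replicates 1, 2 and 4 and Aspn above Lum in control replicate 3. Ogn (1908 ± 97.1) and Dcn (1818 ± 205) followed and also overlapped, then Kera (1158 ± 242), Fmod (305 ± 37.4), Omd (246 ± 19.9), Prelp (136 ± 32.5) and Epyc (9.42 ± 10.9). The gene with the largest difference, Prelp, was thus among the least abundant of the 10.

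The order depends on the length used. With the union of all annotated exons, a setting added after the values were seen, Bgn came to 3971, Aspn to 4112 and Lum to 3911 normalised counts per kb in controls, so that no clear leader remained, and Dcn to 548, below Kera (1158). The rest of the order was the same.

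Summed per kb, the family stood at 22013, 24799, 24977 and 22848 in control replicates 1 to 4 and at 22423, 15329, 18562 and 22941 in mutant replicates 1 to 4. The totals of mutant replicates 1 and 4 were inside the control range, and those of replicates 2 and 3 below it. Biglycan kept a like share of this total, 42.3% ± 0.753 in the controls against 41.4% ± 2.08 in the mutants (SD, n = 4 each). Decorin took 7.67% ± 0.509 in the controls against 10.2% ± 3.22 in the mutants, where its share was 14.8% in replicate 2. Osteoglycin took 8.09% in the controls against 6.48% in the mutants, with 4.54% in replicate 2. These shares hold only for the principal transcript lengths. With the exon union, Bgn came to 3971 and Dcn to 548 of a family total of 16287 normalised counts per kb in controls.

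**Figure D3:**
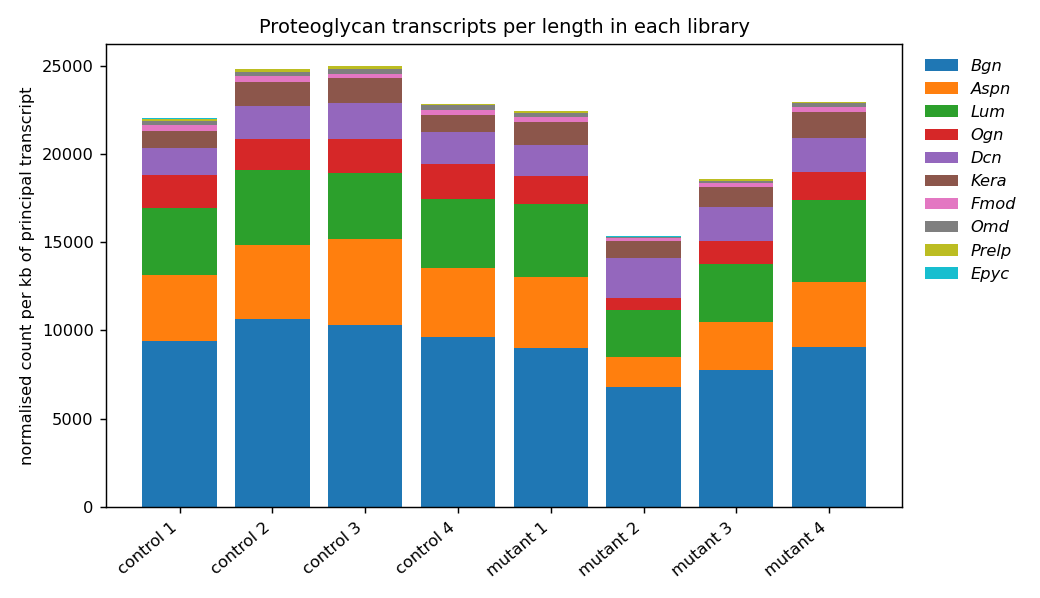
Normalised count per kb of principal transcript (vertical axis, linear, from 0), stacked over the 10 genes for each of the 4 control and 4 mutant libraries. Bgn is the lowest and largest block in every bar, and the bars of mutant replicates 2 and 3 reach 15329 and 18562 where those of the controls reach 22013 to 24977.

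By chromosome, the genes at 1 locus resembled each other to different degrees. On chromosome 13, Aspn, Omd and Ogn follow each other on the plus strand, with Ecm2, a related leucine-rich matrix gene, just before Aspn, within 119.7 kb and with gaps of 11.7, 14.9 and 15.2 kb. All 3 of the 10 genes there had lower means in mutants, by -0.51 (Aspn), -0.72 (Omd) and -0.61 (Ogn) on the log2 scale, and Ecm2 went from 96.4 ± 27.4 to 77.9 ± 20.5 normalised counts (log2 difference -0.30, limma adjusted p = 0.878). All 4 lie inside Cenpp, a centromere protein gene on the opposite strand, and a strand setting of the counting was not given in the sources used here, so reads of the overlapping genes may be mixed. Cenpp had 202 ± 31.6 normalised counts in the controls against 247 ± 31.3 in the mutants (SD, n = 4 each), a log2 difference of 0.29 (limma adjusted p = 0.786), opposite in sign to the genes inside it.

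On chromosome 1, Optc, Prelp and Fmod lie within 151.1 kb, with 2.30 kb between Optc and Prelp and 115.8 kb between Prelp and Fmod. Optc, which encodes opticin, an osteoglycin relative of the eye, had 103 ± 17.7 normalised counts in the controls against 74.6 ± 19.3 in the mutants (log2 difference -0.48, limma adjusted p = 0.775), so all 3 genes of this locus had lower means in mutants. On chromosome 10, Dcn, Lum, Kera and Epyc lie on the plus strand within 202.8 kb, with gaps of 47.0, 34.2 and 30.4 kb, and had log2 differences of 0.10, -0.12, 0.077 and 0.33, none with p below 0.05. The antisense genes annotated across Prelp and Epyc, Gm15851 and Gm10754, had 0 counts in all 8 libraries.

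**Figure D4:**
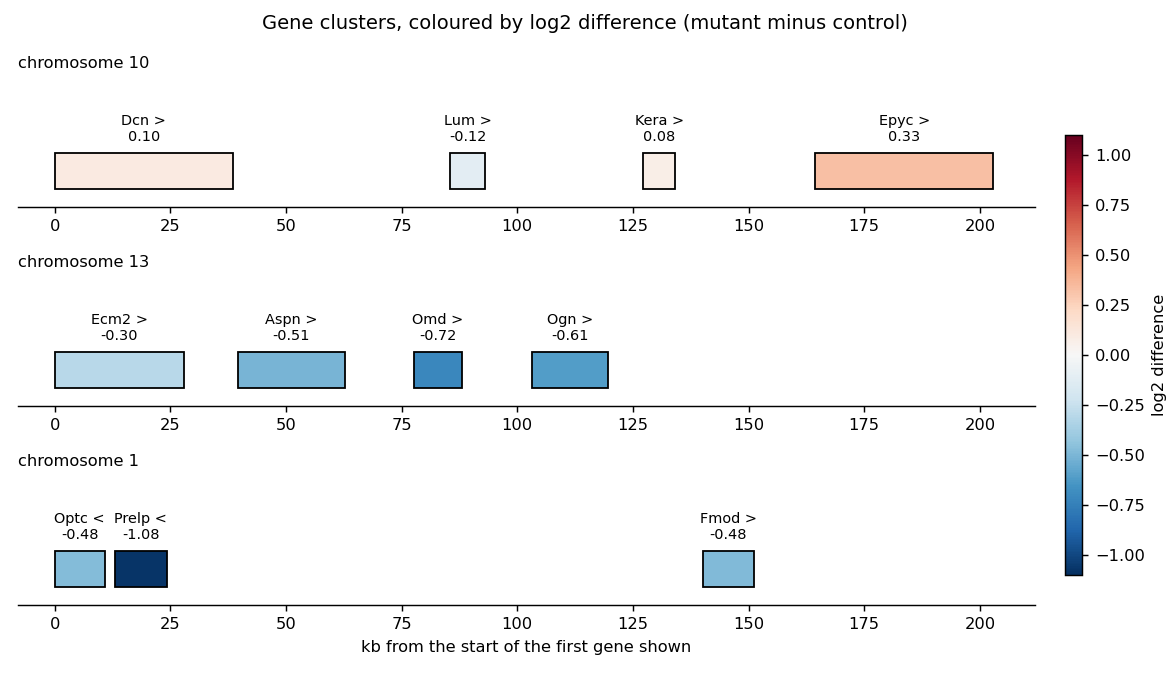
Positions of the clustered genes along chromosomes 10, 13 and 1, in kb from the start of the first gene shown, drawn to scale with > for the plus and < for the minus strand. Colour and the printed number give the log2 difference, mutant minus control: the 4 genes of chromosome 13 run from -0.72 to -0.30, the 3 of chromosome 1 from -1.08 to -0.48, and the 4 of chromosome 10 from -0.12 to 0.33.

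Across the libraries, mutant replicate 2 was the lowest of the 8 for 7 of the 10 genes and the highest for 1. The median of the 10 log2 levels relative to the control mean was -0.84 in mutant replicate 2, -0.37 in replicate 3, -0.12 in replicate 4 and -0.056 in replicate 1, and it lay between -0.064 and 0.070 in the controls. The mutants thus differed more among themselves than the controls did, and replicate 1 lay within the control range on this measure. Mutant replicates 2 and 3 share the first number of their titles, 3602, with control replicate 3, and mutant replicate 4 shares 2057 with control replicates 2 and 4, and the labels do not say what this number marks. Within number 2057, 1 mutant against 2 controls, the log2 differences were -0.86 for Prelp, -0.23 for Ogn, -0.18 for Fmod, -0.17 for Bgn, -0.11 for Aspn and -0.0032 for Omd. Within number 3602, 2 mutants against 1 control, they were -1.61 for Prelp, -1.03 for Ogn, -0.54 for Fmod, -0.51 for Bgn, -1.16 for Aspn and -1.57 for Omd. The sign was the same in both for these 6 genes, and the size differed most for Aspn and Omd. Lum (0.18 and -0.33), Kera (0.38 and -0.41) and Epyc (-0.49 and 2.05) changed sign between the numbers, and Dcn had 0.031 and 0.019.

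**Figure D5:**
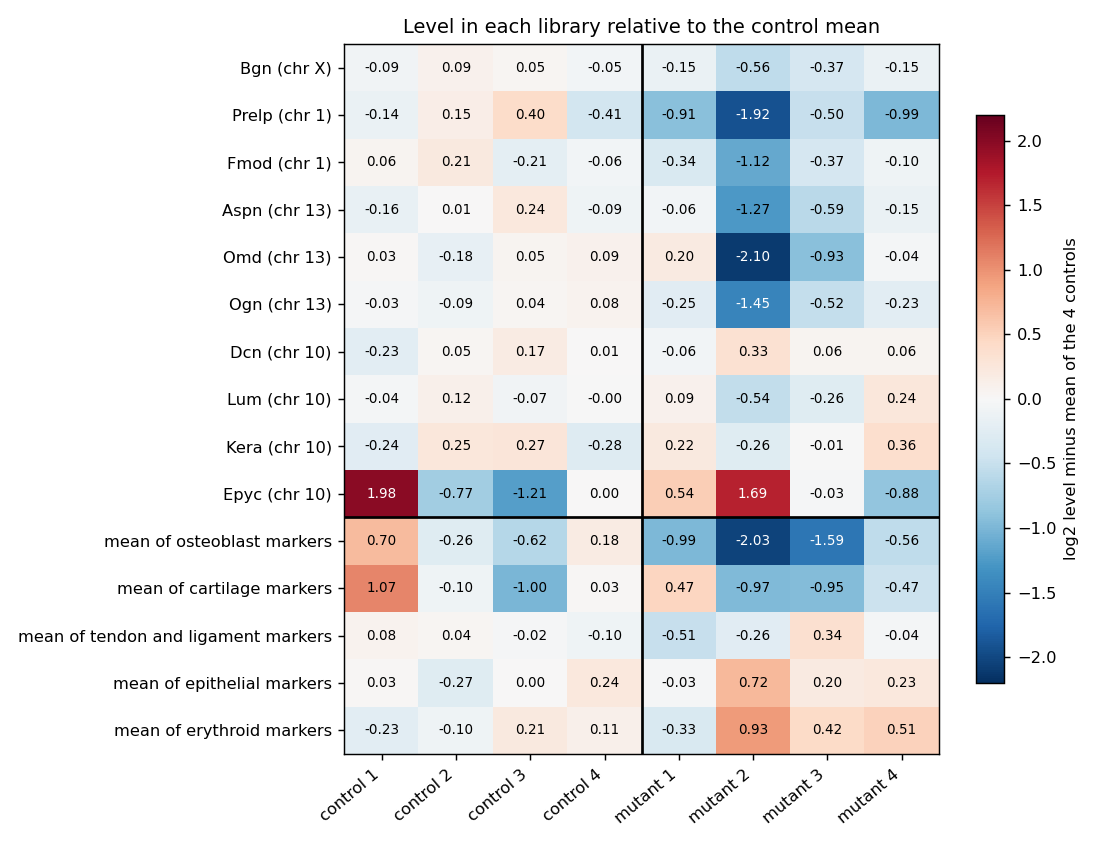
Log2 level minus the mean of the 4 controls (colour and printed number) in each library (columns) for the 10 genes with their chromosomes (upper rows) and for the mean of 5 marker lists (lower rows). Mutant replicate 2 is lowest for Omd at -2.10 and Prelp at -1.92, and the osteoblast marker mean is -2.03 there, while Dcn is at 0.33.

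Osteoblast markers were also lowest in mutant replicate 2. Of 15 listed, 13 were tested, all 13 had lower means in mutants, 8 had p below 0.05 and none passed adjustment, with a median log2 difference of -1.13. Over all genes tested, 50% had a lower mean log2 level in mutants and 3.79% were lower with p below 0.05. Bglap, which encodes osteocalcin, was at 0 in all libraries and Bglap2 was below the filter. Ibsp, the gene for bone sialoprotein, had 16656 ± 7149 normalised counts in the controls against 2582 ± 2181 in the mutants (log2 difference -2.94, limma adjusted p = 0.267; -2.46 on leaving out mutant replicate 2). The summed osteoblast level ran from 27620 to 53491 normalised counts in controls and from 9767 to 28526 in mutants. The mean log2 level of the markers relative to the controls was 0.70, -0.26, -0.62 and 0.18 in control replicates 1 to 4 and -0.99, -2.03, -1.59 and -0.56 in mutant replicates 1 to 4. The part of these cells in the proteoglycan differences was not tested. Mutant replicates 2 and 3 had the lowest osteoblast levels. They were also the lowest of the 8 libraries for Bgn, Lum, Fmod, Aspn, Omd and Ogn. This did not hold for Prelp, Dcn, Kera or Epyc. Among the other libraries the order differed. Control replicate 3, with the lowest osteoblast level of the controls, had the highest Prelp and Aspn of all libraries. Mutant replicate 1, at an osteoblast level of -0.99, had the highest Omd.

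Among the other lists, 11 of 12 tested cartilage markers had lower means in mutants (3 with p below 0.05, none past adjustment, median log2 difference -0.45, summed level 28450 to 48091 normalised counts in controls and 16924 to 36063 in mutants), with Matn3 and Snorc not tested. Hapln1, the cartilage link protein gene, had 638 ± 182 and 363 ± 132 counts (log2 difference -0.84). Of 13 epithelial markers, 13 had higher means in mutants (3 with p below 0.05, median log2 difference 0.22, summed level 32695 to 43623 in controls and 35397 to 61754 in mutants), and of 7 erythroid markers 7 had (2 with p below 0.05, median 0.29, summed level 19431 to 23721 and 16025 to 42302), both sums being highest in mutant replicate 2. Of 8 tendon and ligament markers, 5 had lower means (median -0.0068, none with p below 0.05, summed level 25113 to 34075 and 21850 to 32251), and of 10 tested fibroblast markers 8 had (median -0.11, none with p below 0.05, summed level 120391 to 140651 and 115358 to 127090), with Pi16 not tested. Of 10 endothelial markers 9 had lower means, 5 of them with p below 0.05 (median -0.21, summed level 19652 to 20765 in controls and 14558 to 19626 in mutants). Over all genes tested, 3.79% were lower in mutants with p below 0.05 and 2.78% were higher. Apart from Bglap, no marker of these lists was at 0 in all libraries. Lower means in mutants were found for 2 of 6 pericyte, 6 of 11 skeletal muscle, 1 of 7 glial and 1 of 7 macrophage markers, with median log2 differences of 0.13, -0.043, 0.48 and 0.11. The part of these cell types in the proteoglycan differences was not tested either.

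The genes nearest in pattern were found by the root-mean-square difference of centred log2 levels over the 8 libraries, for the 6 members that varied by at least 1 on the log2 scale. This is a description over libraries that the members share, and mutant replicate 2 was the lowest library for the 5 of them other than Epyc. Nearest to Omd were Sp7 (0.18), the osteoblast transcription factor osterix, Ptprv (0.19), a receptor-type phosphatase gene, and Clec11a (0.26), which encodes a secreted C-type lectin. Sp7 had a mean of 4055 normalised counts in the controls against 2453 in the mutants, a log2 difference of -0.93. Nearest to Ogn were Nrp2 (0.11), a semaphorin and VEGF co-receptor, Csgalnact1 (0.13), which starts chondroitin chains, and Gria1 (0.13), a glutamate receptor subunit.

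Nearest to Aspn were Hs3st3b1 (0.11), a heparan sulfate sulfotransferase, Nrp2 (0.12) and Lingo1 (0.14), a membrane protein with leucine-rich repeats. Nearest to Fmod were Map10 (0.13), a microtubule-associated protein, Creb3l1 (0.14), a membrane-bound transcription factor, and Cercam (0.14). The distances were larger for Prelp, whose nearest genes were Scin, Dach2 and Cdh13 (0.28 each), and for Epyc, whose nearest were Hpca (0.62), Lmo3 (0.66) and AC164426.2 (0.69). Within the family, Aspn and Ogn were the closest pair (0.14), each standing among the 5 nearest genes of the other. Next came Bgn and Lum (0.14), Fmod and Ogn (0.19) and Lum and Kera (0.21), the last of these on 1 locus. Ogn ranked only 51 among the genes nearest to Fmod, and Fmod 24 among those nearest to Ogn. Bgn, Lum and Kera varied by less than 1 (0.66, 0.79 and 0.65), and genes that vary little lie near each other on this measure. Dcn and Omd were the farthest apart among the genes other than Epyc (0.85).

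Genes that act with the family were counted by list, from its substrate collagen to the enzymes that build its chains and the factors it binds. Over all genes tested, 50% had a lower mean log2 level in mutants, 3.79% were lower with p below 0.05 and 2.78% higher. Of 14 genes for fibrillar, fibril-associated and type VI collagens, the substrate on which the proteoglycans act, 13 had lower means in mutants. Among these collagen genes 8 had p below 0.05, none passed adjustment, and the median log2 difference was -0.29. Col1a1, the main collagen of bone and skin, had 193799 ± 23342 normalised counts in the controls against 152026 ± 28276 in the mutants (log2 difference -0.36, and -0.23 without mutant replicate 2). Col11a1, which forms the core of thin fibrils, had 12175 ± 1441 and 8189 ± 2552 (log2 difference -0.63, and -0.37 without that library). Each had a limma adjusted p of 0.754.

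Of 27 genes for chondroitin and dermatan sulfate synthesis, 19 had lower means in mutants, 2 lower and 1 higher with p below 0.05, and the median log2 difference was -0.071. Csgalnact1 had 495 ± 44.9 normalised counts in the controls against 343 ± 125 in the mutants (SD, n = 4 each). Every mutant was below every control for Csgalnact1, which held for 1.91% of all genes. Its log2 difference was -0.62, and -0.28 without mutant replicate 2. Chst3, a chondroitin sulfotransferase, had 697 ± 57.8 and 829 ± 83.5, a log2 difference of 0.25. Of 8 genes for keratan sulfate synthesis, 6 had lower means and the median was -0.074. Chst5, a sulfotransferase of this chain, was higher in every mutant library than in any control, with 78.0 ± 12.5 and 119 ± 17.9 normalised counts (log2 difference 0.61, limma adjusted p = 0.754), where 1.86% of all genes were higher without overlap.

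Of 16 ligands and receptors known to bind members of the family, 12 had lower means in mutants, 5 of them with p below 0.05, and the median log2 difference was -0.16. Wisp1, a secreted Wnt-induced protein that binds decorin and biglycan, had 2046 ± 238 normalised counts in the controls against 1490 ± 217 in the mutants. Every mutant was below every control for Wisp1, which held for 1.91% of all genes. In the other direction, 1 of the 16 was higher in every mutant than in any control, which held for 1.86% of all genes. The log2 difference of Wisp1 was -0.46 (limma adjusted p = 0.751), and -0.35 on leaving out mutant replicate 2. Bmp2, a bone morphogenetic protein, had 1262 ± 104 and 988 ± 217 (log2 difference -0.38, and -0.23 without that library). Of 12 tested genes for enzymes and cofactors that process matrix (Mmp3 was not tested), 9 had lower means and 1, Pcolce, the enhancer of procollagen cleavage, had p below 0.05, with 3680 ± 115 and 3158 ± 543 normalised counts and a log2 difference of -0.24. Of 7 other tested leucine-rich matrix genes (Nyx and Nepn were not tested), 6 had lower means with a median of -0.47, and none had p below 0.05. Podn, which encodes podocan, had 1043 ± 244 and 767 ± 221 (log2 difference -0.47, and -0.24 without that library). No gene of these lists passed the adjusted limma test in either direction.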

How the data were processed

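RNA of posterior palatal shelves was sequenced in 8 libraries, 4 controls and 4 mutants as the labels give them. The authors deposited, per the file headers, a normalised count signal and a variance-stabilised log2 value per gene and library. STAR 2.7.2 and DESeq2 (no version) are named, per the submitters' processing notes; a counting tool, strand setting and build were not given in the sources used here. Of 52403 gene IDs also in GENCODE M21 (GRCm38), 95.2% had the same start and end there. Dividing by a step per library gave whole reads for 100% of signal values between 50 and 5000 (within 0.055 normalised counts), with size factors of 0.939 to 1.06.

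Genotype was tested with limma 3.58.1 (R 4.3.3, intensity trend, two-sided, Benjamini-Hochberg at 0.05) on log2(normalised count + 1) over 16647 genes. Alternatives were DESeq2 1.42.0 and edgeR 4.0.16, both on recovered whole reads, and other pseudocounts, filters, scalings, variances, weights and library sets. No 2 libraries were duplicates: replicate pairs differed by a chi-square of 14.7 to 42.8 per gene. Replicates were numbered in accession order. The test was checked on simulated counts.

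The members and gene lists were chosen with earlier results of these data known. Named were all 10 members, Yap1, Wwtr1 and Col2a1, up to 3 genes per list with the smallest p, and, for members varying by at least 1 (log2), the 3 nearest genes with a mean of at least 50 normalised counts, Gm and Rik genes left out; Sp7 and others met this rule, and Ecm2, Optc, Cenpp and the antisense genes were named for their position and Krt14 to check the labelled epithelium, outside this rule. Plots used matplotlib 3.10.9 (Python 3.11.15).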

Additional observations from a re-analysis of the deposited data

Results flagged for a closer look

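Epyc in control replicate 1, at 65 normalised counts, lay far from the other 3 controls, at 6.20 to 15.7. The gap to the nearest of them was 0.838 of the group's range, above Dixon's 95% critical value for 4 samples. It was the only such sample among 20 groups looked at (10 genes in controls and in mutants), and chance alone flags about 1 in 20 groups.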

How the results depend on the processing

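Across 21 alternatives the median log2 difference of the 10 genes stayed negative, from -0.49 to -0.22, and it was -0.24 without mutant replicate 2. Prelp, Omd, Ogn, Aspn, Fmod and Bgn kept a negative difference under all 21, and Dcn a positive one. The deposited variance-stabilised values gave Prelp -0.35, Omd -0.22 and Fmod -0.22, and Omd was -0.47 with edgeR and -0.48 with DESeq2. The number of genes called over the whole table, 4 with limma, moved to 0 with robust variances, to 28 with DESeq2 (25 lower, 3 higher; 5 with edgeR), and ran from 0 to 11 when single libraries were left out. It was 0 when control replicate 2, control replicate 4 or mutant replicate 3 was omitted, 11 when control replicate 3 was and 8 when mutant replicate 4 was; unadjusted p below 0.05 then held for 855, 1026, 966, 1206 and 1108 genes, and for 1061 with robust variances. The cause was not tested. The sign turned for Kera with the replicate block (-0.015) and on leaving out control replicate 1 (-0.0044), control replicate 4 (-0.018) or mutant replicate 4 (-0.019), for Lum on leaving out mutant replicate 2 (0.023), and for Epyc on leaving out control replicate 3 (-0.072) or mutant replicate 2 (-0.12); single libraries left out gave Kera at most 0.19 and Epyc at most 0.99; Epyc was not tested with a mean of at least 50.

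With the first number of the titles as a replicate block, 6 genes were called, 2 of them shared with the fit without it, and the median of the 10 was -0.35. The number is not shown to pair the libraries: the deviations of same-numbered control and mutant libraries correlated at -0.0077 to 0.10. The 9 genes other than Epyc had over 100 normalised counts in every library; Epyc had 6.20 to 65, where counting error is largest.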

Other observations

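Ratios between members within a library do not depend on the scaling of the libraries; the pairs were chosen after the values were seen, so they carry no test. Bgn over Dcn, a pair of close relatives, was 8.39, 7.85, 6.96 and 7.29 in control replicates 1 to 4 and 7.13, 4.10, 5.66 and 6.60 in mutant replicates 1 to 4, as ratios of normalised counts, with mutant replicate 1 inside the control range and the other mutants below it. Aspn over Ogn, neighbours on chromosome 13, was 1.98 ± 0.242 in the controls against 2.11 ± 0.174 in the mutants (SD, n = 4 each), and it stayed at 2.24 in mutant replicate 2, where both genes were at their lowest. Aspn over Omd, at the same locus, was 31.3 in mutant replicate 2 and 14.6 to 22.1 in the other 7 libraries. Ogn over Lum was 0.443 to 0.554 in controls and 0.273 to 0.429 in mutants, without overlap. Aspn over Dcn was 2.83 to 3.18 in controls and 2.15 ± 0.886 (SD, n = 4) in mutants, mutant replicate 2 being the lowest.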
